A study of Mus musculus with 4 samples.

Results

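The BCL2 family decides whether a cell releases the contents of its mitochondria and dies by apoptosis. Described here are the transcripts of 10 of its genes in mouse cultures labelled as CD4+ T cells, of WT mice and of mice designed to lose the kinases MEK1 and MEK2 in T cells (Mek1/2-tKO). They were taken by gene symbol from the 54752 genes of the count tables: the pro-survival genes Bcl2, Bcl2l1 and Mcl1, the effectors Bax and Bak1, and the BH3-only genes Bid, Bad, Bcl2l11, Bbc3 and Pmaip1. The Mek1/2-tKO mice carried Cd4-Cre and were homozygous for floxed Map2k1 and for floxed Map2k2 (fl/fl at each), and the controls were WT littermates. Cd4-Cre is active from the thymus onwards, in the CD8 as well as the CD4 lineage. Naïve splenic CD4+ T cells of each genotype were cultured toward the T follicular helper (Tfh) fate with anti-CD3 bound to the plate at 5 μg/ml, anti-CD28 at 1 μg/ml and IL-6 at 20 ng/ml. IL-4, IL-2, TGF-β and IFN-γ were neutralized, each with 10 μg/ml of antibody. Viable cells were sorted again on day 3, and 2 libraries per genotype were sequenced. The sources used here do not give the age of these mice, and the labels do not say whether the libraries of a genotype came from separate animals or cultures. The p-values therefore measure the spread between these libraries, which may be technical.

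Pro-survival proteins of the family bind and restrain the effectors BAX and BAK, which otherwise form pores in the outer mitochondrial membrane. BH3-only proteins answer stress and the loss of growth signals by occupying the pro-survival proteins or by activating the effectors directly. T cells depend on BCL2 and MCL1 to survive. BCL-XL is the product of Bcl2l1, and BIM, the product of Bcl2l11, removes T cells after a response. ERK, the kinase downstream of MEK1 and MEK2, is known to phosphorylate BIM and MCL1, and its partner kinase RSK phosphorylates BAD. Those steps act on proteins, which RNA sequencing does not measure.

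The promoters of 4 members are shown because these genes stand for the outcomes found below: Mcl1 and Bax had more transcript in Mek1/2-tKO, Bcl2 had less, and Bcl2l11 was not called. Each line is the RefSeq sequence (GRCm38.p6) of the 250 bases before the first listed start, written 5′ to 3′ on the gene's strand, with every match to a searched motif in capitals. The windows are chr3:95658471-95658720 on the plus strand for Mcl1, chr7:45466899-45467148 on the minus strand for Bax, chr1:106714291-106714540 on the minus strand for Bcl2 and chr2:128125788-128126037 on the plus strand for Bcl2l11.
Mcl1: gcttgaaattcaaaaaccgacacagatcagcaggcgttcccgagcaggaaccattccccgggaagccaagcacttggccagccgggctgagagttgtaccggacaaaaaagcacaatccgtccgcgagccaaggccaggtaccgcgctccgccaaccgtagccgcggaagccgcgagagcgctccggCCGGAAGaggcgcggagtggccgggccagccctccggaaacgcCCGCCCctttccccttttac
Bax: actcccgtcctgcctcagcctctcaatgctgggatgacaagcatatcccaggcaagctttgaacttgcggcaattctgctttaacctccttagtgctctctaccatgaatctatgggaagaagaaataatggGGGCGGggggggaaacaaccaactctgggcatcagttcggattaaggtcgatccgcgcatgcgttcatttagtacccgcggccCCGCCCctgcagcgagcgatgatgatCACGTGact
Bcl2: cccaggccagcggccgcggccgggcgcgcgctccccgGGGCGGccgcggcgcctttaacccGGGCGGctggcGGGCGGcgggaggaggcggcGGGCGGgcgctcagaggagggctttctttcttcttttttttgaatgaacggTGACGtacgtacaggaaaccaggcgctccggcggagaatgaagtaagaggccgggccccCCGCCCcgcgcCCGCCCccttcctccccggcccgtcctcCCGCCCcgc
Bcl2l11: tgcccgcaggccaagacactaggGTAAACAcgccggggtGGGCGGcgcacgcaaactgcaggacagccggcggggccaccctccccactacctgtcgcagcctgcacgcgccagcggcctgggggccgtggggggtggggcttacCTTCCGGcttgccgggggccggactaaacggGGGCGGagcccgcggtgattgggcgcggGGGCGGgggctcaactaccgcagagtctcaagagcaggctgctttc
The motifs searched on both strands were the SP1 box GGGCGG, the CRE half-site TGACG, the AP-1 site TGANTCA, the FOXO site TGTTTAC, the E-box CACGTG, the STAT site TTCNNNGAA and the ETS core CCGGAAG. The Bcl2 window held 7 SP1 boxes and a CRE half-site 107 bases before the start. In the Mcl1 window an ETS core lay 63 bases and an SP1 box 20 bases before the start. The Bax window held 2 SP1 boxes and an E-box 9 bases before the start. The Bcl2l11 window held a FOXO site 227 bases before the start, an ETS core and 3 SP1 boxes.

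RefSeq windows were found for 9 members with 15 starts, and none was found for Pmaip1. SP1 boxes occurred in at least 1 window of 7 of these 9 members (10 of the 15 starts), and in 32.7% of the 32851 promoters of the same length. Bak1 and Bcl2l1 had none. The window of Bak1 and those of the first 2 starts of Bcl2l1 lie wholly within annotated exons. FOXO sites occurred in Bcl2l11 and Bbc3 and in 3.17% of all promoters, CRE half-sites in Bcl2 and Bbc3 and in 17.8%, E-boxes in Bax and Bbc3 and in 6.02%, and ETS cores in Mcl1 and Bcl2l11 and in 6.91%. Neither the AP-1 letters (6.75% of all promoters) nor the STAT letters (7.02%) occurred in a window of a member. A member with several starts has more windows to match than a single promoter, and a match describes letters, not binding. The SP1 boxes stood in windows of genes that were higher (Mcl1 and Bax), lower (Bcl2) and not called (Bcl2l11).

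Each library held between 16330802 and 18931090 counts, of which mitochondrial genes made up 1.56 to 2.24%. The targeted genes were read first. Map2k1 had 182 and 187 CPM (counts scaled to a common library size) in WT, against 98.0 and 105 CPM in Mek1/2-tKO (log2 fold change -0.86, standard error 0.082, adjusted p = 1.29e-06 in edgeR). Map2k2 was not reduced, at 155 and 165 CPM in WT, against 172 and 182 CPM in Mek1/2-tKO (0.15, SE 0.080, edgeR adjusted p = 0.126). Counts over a whole gene include exons that the deletion leaves in place, so the labels are checked by these values in part only, and Mek1/2-tKO below means the libraries labelled so. Markers of other cells were higher in both Mek1/2-tKO libraries and are given here because they bear on every comparison that follows. Cd4, named after its values were seen, had 297 and 289 CPM in WT, against 18.8 and 25.1 CPM in Mek1/2-tKO. Of 14 T-cell identity genes 7 were lower, 1, Thy1, was higher, and 6 were not called, with log2 fold changes from -0.55 to 0.24. Cd4 had the largest decrease of the 14, at -3.73 beside a median of -0.67. The summed level of the 14 genes was 3854 and 3897 CPM in WT, against 3225 and 3019 CPM in Mek1/2-tKO. Of 15 B-lineage markers 14 were higher, with sums of 1477 and 1451 CPM against 7300 and 7278 CPM, led by Ighm. All 10 NK-cell markers were higher (sums of 132 and 129 against 854 and 784 CPM, led by Nkg7), and so were all 7 matched gamma-delta and CD8 T-cell markers (74.4 and 63.6 against 422 and 379 CPM, led by Cd8a). Of 10 myeloid markers the 5 that could be tested were higher (14.7 and 12.7 against 80.4 and 79.5 CPM, led by Spi1). C1qa stayed at or below 0.26 CPM in every library. Some of the NK-cell, gamma-delta and myeloid markers had at most 5 counts in either WT library. These could be tested only through their counts in Mek1/2-tKO and could only be called higher, so the numbers of called markers are partly set by this. The part of these cells in the differences described below was not tested, both Mek1/2-tKO libraries carry the markers, and a smaller number of cells of a type cannot be told apart from less RNA per cell.

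Levels of different genes were compared in TPM, a scale that divides by exon length, and only within a genotype. Mcl1 was the most abundant member in both genotypes, with 226 and 225 TPM in the WT libraries and 249 and 266 TPM in the Mek1/2-tKO libraries. In WT, Bax followed with a mean of 121 TPM, then Bcl2l1 with 115 and Bak1 with 98.1 TPM, and the libraries of these neighbours did not overlap. The BH3-only genes lay lower, from Bid at 24.8 TPM through Bad at 15.1, Bbc3 at 13.8 and Pmaip1 at 9.69 to Bcl2l11 at 7.67 TPM. Bcl2, the founding member, had 12.4 TPM in WT, below 3 of the 5 BH3-only genes. This place rests on its exon length of 9157 bases, which is that of the whole gene and not of the form expressed. In CPM, which is not divided by length, Bcl2 had a WT mean of 58.8, above Bid at 45.5 and the other BH3-only genes. Bad and Bbc3 did not differ beyond their spread in WT. In Mek1/2-tKO the first 6 places were held in the same order, at 257, 174, 73.9, 57.5, 27.7 and 16.6 TPM. Pmaip1 moved up to the seventh place with 13.4 TPM, where its range overlapped that of Bbc3 at 11.7 TPM. Bcl2 with 5.89 TPM and Bcl2l11 with 5.83 TPM came last and overlapped. The trend of fold changes with gene length, described below, was not removed from these TPM, so the changes of place include it. Bbc3, lower in mean TPM in Mek1/2-tKO, had mean CPM of 15.1 in WT and 17.0 in Mek1/2-tKO.

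**Figure D1:**
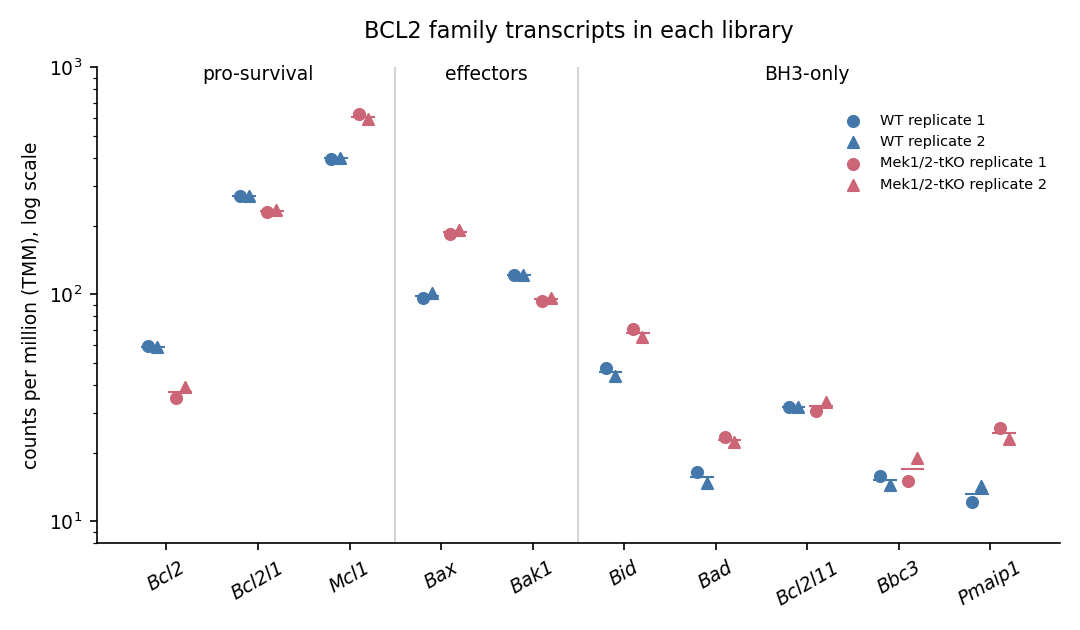
CPM (TMM scaling, log axis) of the 10 members in each of the 4 libraries, with WT in blue, Mek1/2-tKO in red, a circle for replicate 1, a triangle for replicate 2 and a line at the mean of each genotype. Bcl2, Bcl2l1 and Bak1 lie lower in both Mek1/2-tKO libraries, Mcl1, Bax, Bid, Bad and Pmaip1 lie higher in both, and the genotypes overlap for Bcl2l11 and Bbc3.

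The genotypes were compared on CPM scaled by the TMM method. A gene was called higher or lower where its p from the quasi-likelihood test of edgeR, adjusted by Benjamini-Hochberg over the 14330 genes tested, was below 0.05 and the fold change reached 1.5. All 10 members were tested. Of these, Mcl1, Bax and Pmaip1 were higher in Mek1/2-tKO, Bcl2 was lower, and 6 were not called. Over all tested genes 35.8% were called, 19.3% higher and 16.4% lower, so that 4 called of 10 members is close to the background. With glmTreat, edgeR's test against the 1.5-fold itself, Bax and Pmaip1 were called, 2 of the 10 against 20.5% of all genes. By the adjusted p alone 8 of the 10 passed, against 55% of all genes. For 8 members the libraries of the genotypes did not overlap, against 78.3% of all genes. The median log2 fold change of the members was 0.36, beside 0.015 over all genes tested. With 2 libraries per genotype no exact permutation p can fall below 0.333, and the p-values rest on the variance model fitted across genes.

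Among the pro-survival genes, Bcl2 fell, Mcl1 rose and Bcl2l1 was not called. Bcl2 (ENSMUSG00000057329.7, chromosome 1, 106538178 to 106714274) guards the mitochondria of resting lymphocytes. It had 59.0 and 58.6 CPM in the WT libraries and 35.0 and 39.0 CPM in the Mek1/2-tKO libraries. Both Mek1/2-tKO values lay well below both WT values, and the WT libraries were nearly equal. The level was 1.59-fold lower in Mek1/2-tKO (log2 fold change -0.67, standard error [SE] 0.107, edgeR adjusted p = 1.42e-04). Its call held in each fit that left out a library (-0.75 to -0.59). Its exons span 9157 bases, the most of any member, and with the trends on exon length and GC content removed the log2 fold change was -0.29, under the fold threshold (edgeR adjusted p = 0.019).

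Mcl1 (ENSMUSG00000038612.16, chromosome 3, 95658788 to 95663176) encodes a short-lived protein that activated T cells need to stay alive. Its level was 395 and 400 CPM in WT, against 620 and 592 CPM in Mek1/2-tKO. The genotypes were far apart relative to the gap within either. Mcl1 was 1.53-fold higher (log2 fold change 0.61, SE 0.073, edgeR adjusted p = 1.03e-05), just past the fold threshold. Without Mek1/2-tKO replicate 1 the value was 0.58, and with scaling by library size alone 0.52, both under the fold threshold and with the direction kept. With the length and GC trends removed the value was 0.62.

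Bcl2l1 (ENSMUSG00000007659.18, chromosome 2, 152780668 to 152831728), the gene of BCL-XL, had 272 and 273 CPM in WT, against 232 and 235 CPM in Mek1/2-tKO. The genotypes did not overlap, but the fold was small (log2 fold change -0.22, SE 0.072, edgeR adjusted p = 0.0175). With each library left out the value ranged from -0.24 to -0.21, and its adjusted p depended on which genotype lost a library. Gene-level counts pool the long form with the short form, which promotes death, and these forms cannot be separated here. With the length and GC trends removed the value was -0.031 (edgeR adjusted p = 0.714).

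Of the effectors, Bax rose and Bak1 was not called. Bax (ENSMUSG00000003873.11, chromosome 7, 45461697 to 45466898), a pore former that rests in the cytosol until activated, had 96.2 and 101 CPM in WT. In Mek1/2-tKO it had 185 and 192 CPM, so that both libraries lay far above both WT values. The change was 1.91-fold (log2 fold change 0.93, SE 0.081, edgeR adjusted p = 5.53e-07), and it was called with each library left out (0.89 to 0.97). With the length and GC trends removed it was 0.77. Bak1 (ENSMUSG00000057789.13, chromosome 17, 27019810 to 27029009), the pore former that sits in the mitochondrial membrane, had 122 CPM in both WT libraries and 93.8 and 96.5 CPM in Mek1/2-tKO. Both Mek1/2-tKO values were lower, by less than the fold threshold (log2 fold change -0.36, SE 0.084, edgeR adjusted p = 0.00258). Within each library the ratio of Bax to Bak1 in TPM was 1.21 and 1.27 in WT and 3.01 and 3.05 in Mek1/2-tKO.

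Of the BH3-only genes, 1 was called. Pmaip1 (ENSMUSG00000024521.7, chromosome 18, 66458604 to 66465550) encodes NOXA, which binds MCL1 and promotes its degradation. It had 12.2 and 14.3 CPM in WT, against 25.8 and 23.1 CPM in Mek1/2-tKO. The genotypes did not overlap although the replicates of each genotype differed by more, relative to their level, than those of Mcl1 or Bcl2l1. Pmaip1 was 1.85-fold higher (log2 fold change 0.88, SE 0.154, edgeR adjusted p = 2.67e-04), and 0.77 to 1.00 on the log2 scale with each library left out.

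Bid (ENSMUSG00000004446.12, chromosome 6, 120891930 to 120916853), which links death receptors to the mitochondria once caspase-8 has cut it, had 47.6 and 43.5 CPM in WT, against 70.7 and 64.8 CPM in Mek1/2-tKO. Both Mek1/2-tKO libraries were higher, and the log2 fold change of 0.57 (SE 0.104, edgeR adjusted p = 3.91e-04) stayed just under the fold threshold. Its call turned to higher without WT replicate 1 (0.64), without Mek1/2-tKO replicate 2 (0.63), and with a minimum of 10 counts in every library (0.59). Bad (ENSMUSG00000024959.13, chromosome 19, 6941861 to 6951898), which neutralizes BCL2 and BCL-XL when it is not phosphorylated, had 16.4 and 14.8 CPM in WT, against 23.6 and 22.3 CPM in Mek1/2-tKO. These groups did not overlap either (log2 fold change 0.55, SE 0.146, edgeR adjusted p = 0.0055). Bad was called higher without WT replicate 1 (0.63) and without Mek1/2-tKO replicate 2 (0.59), and its adjusted p reached 0.0517 without WT replicate 2.

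Bcl2l11 (ENSMUSG00000027381.16, chromosome 2, 128126038 to 128162547) showed no difference that these libraries could detect. It had 31.9 and 31.7 CPM in WT, against 30.7 and 33.5 CPM in Mek1/2-tKO, with the WT values inside the range of the Mek1/2-tKO values. Its log2 fold change was 0.017, with 2 standard errors reaching from -0.22 to 0.25 (edgeR adjusted p = 0.916). The direction was not stable, at -0.067 with library size alone. With the length and GC trends removed the value was 0.38 (edgeR adjusted p = 0.0074), which is under the fold threshold, so that the reading of this long gene (8029 bases of exon) depends on that step. Bbc3 (ENSMUSG00000002083.13, chromosome 7, 16308393 to 16318205), the p53 target that encodes PUMA, had 15.9 and 14.4 CPM in WT, against 15.1 and 19.0 CPM in Mek1/2-tKO. The genotypes overlapped, and its log2 fold change was 0.17 with 2 standard errors reaching from -0.16 to 0.51 (edgeR adjusted p = 0.398). It had 234 to 356 counts per library and the largest standard error of the members (0.167).

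**Figure D2:**
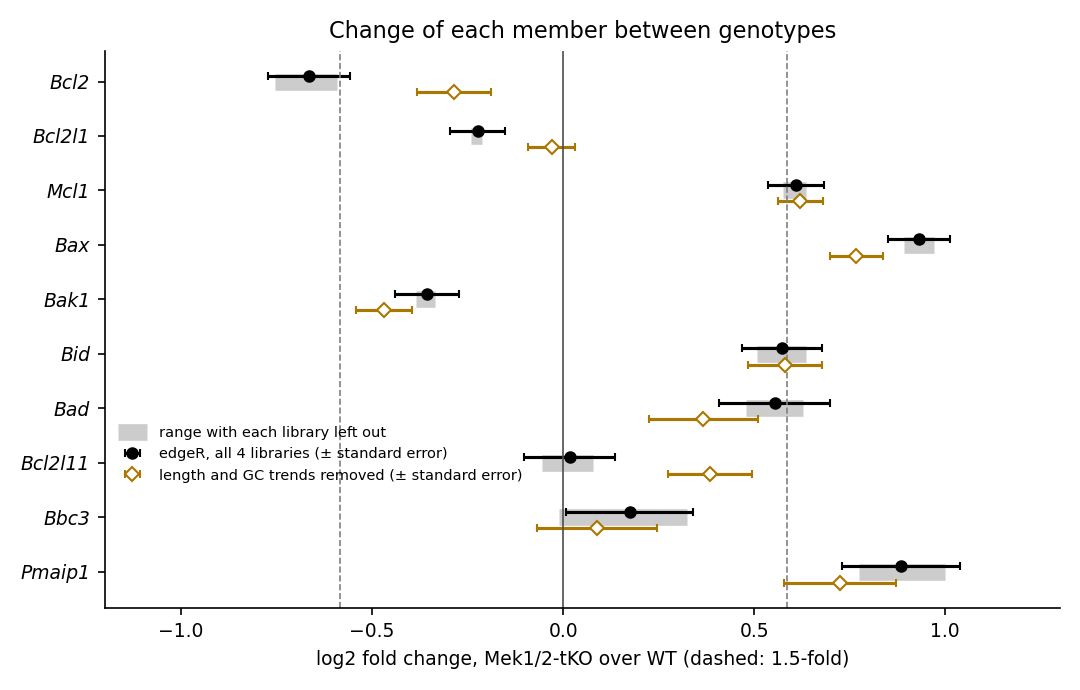
Log2 fold change of each member in Mek1/2-tKO over WT with its standard error (black), the same with the trends on exon length and GC content removed (open diamonds), and the range with each library left out in turn (grey). Bcl2 lies beyond the dashed line of 1.5-fold at -0.67 and inside it at -0.29 once the trends are removed, whereas Bax (0.93 and 0.77) and Pmaip1 (0.88 and 0.72) lie beyond it in both.

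Fold changes in these libraries moved with gene length, and the exons of the members range from 1576 bases in Bax to 9157 in Bcl2. Over the 14330 tested genes the Spearman correlation of the log2 fold change with exon length was -0.386, a description across genes, which are not independent replicates. The median log2 fold change was 0.49 in the shortest and -0.39 in the longest of 5 equal classes of genes by length. In the longest class 34.2% of genes were called lower and 8.79% higher. Bcl2 and Bcl2l11 belong to the longest class. Set against the median of its own class, Bcl2 differed by -0.27 and Bcl2l11 by 0.41 on the log2 scale. Bax, Bak1, Bad, Bbc3 and Pmaip1 fall in class 2, whose median was 0.24. From this median Bax differed by 0.69, Pmaip1 by 0.65, Bad by 0.31 and Bak1 by -0.60. Bcl2l1, in class 4, differed from its class by -0.010, and Mcl1 and Bid, in class 3, differed by 0.61 and 0.57. Between the replicates of Mek1/2-tKO the difference also moved with length (Spearman correlation 0.235), and between those of WT hardly (-0.028). The part of this trend in the difference of any member was not tested. With both trends removed 28.9% of all genes and 3 of the 10 members (Mcl1, Bax and Pmaip1, all higher) were called. The values of Bid (0.58), Bad (0.37), Bbc3 (0.089) and Bak1 (-0.47) then lay under the fold threshold too.

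**Figure D3:**
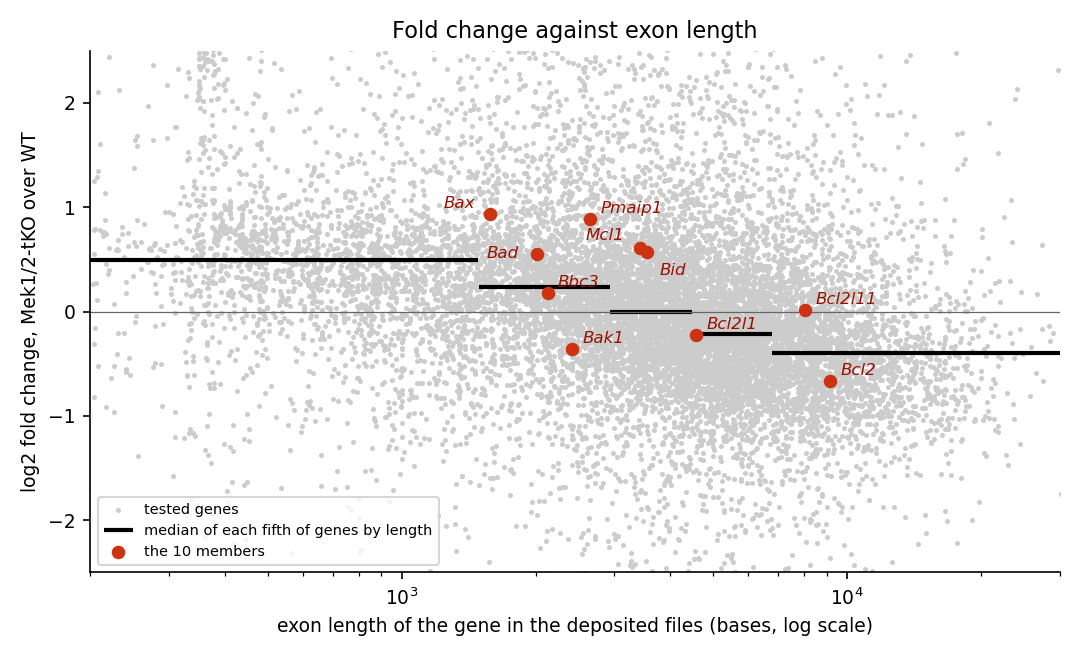
Log2 fold change in Mek1/2-tKO over WT against exon length in bases (log axis) for the tested genes in grey and the 10 members in red, with black bars at the median of each of 5 equal classes of genes by length; genes beyond the axes are not drawn. The medians step down from 0.49 in the shortest to -0.39 in the longest class, Bcl2l1 lies on the median of its class, and Bax, Pmaip1 and Mcl1 lie well above theirs.

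Ratios of members within a library need no scaling between libraries. Bax exceeded Bcl2 by 9.48 and 10.1 times in TPM in WT and by 30.6 and 28.7 times in Mek1/2-tKO. Mcl1 exceeded Bcl2 by 17.9 and 18.3 times in WT and by 47.5 and 40.7 times in Mek1/2-tKO. These pairs hold the longest member in the denominator. With the length and GC trends removed, the log2 difference of Bax over Bcl2 between genotypes was 1.05 in place of 1.60, and that of Mcl1 over Bcl2 0.91 in place of 1.28. Bcl2l11 and Bcl2, the BIM and BCL2 genes, are of like length. Their ratio was 0.616 and 0.618 in WT and 1.00 and 0.982 in Mek1/2-tKO, a log2 difference of 0.68 that became 0.67 with the trends removed. Mcl1 over Bcl2l1 was 1.95 and 1.97 in WT and 3.59 and 3.38 in Mek1/2-tKO. Its log2 difference of 0.83 became 0.65 with the trends removed. Pmaip1 over Mcl1, the pair that binds, was 0.0400 and 0.0461 in WT and 0.0538 and 0.0504 in Mek1/2-tKO, a log2 difference of 0.28 that became 0.10 with the trends removed. No ratio named here overlapped between the genotypes, where 78.3% of all tested genes alone did not overlap in CPM. The share over all pairs of genes was not computed. No test was run on the ratios.

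Summed by role, the balance of the 10 members moved little. Pro-survival genes held 54.9 and 54.8% of their summed TPM in WT and 53.1 and 51.7% in Mek1/2-tKO. The effectors held 33.8 and 34.5% in WT and 35.1 and 36.7% in Mek1/2-tKO. BH3-only genes held 11.4 and 10.7% in WT and 11.8 and 11.6% in Mek1/2-tKO. The genotypes did not overlap for any role, as they did not for 78.3% of all tested genes in CPM. The log2 ratio of effectors to pro-survival genes was higher in Mek1/2-tKO by 0.14 (pooled SD 0.052, n = 2 each). This difference fell to 0.0072 once further family genes with these roles were added to the sums. Added were Bcl2a1a, Bcl2a1b, Bcl2a1d and Bcl2l2 (pro-survival), Bok (effector), and Bmf, Bik and Hrk (BH3-only), but no other gene of the wider family. The log2 ratio of BH3-only to pro-survival genes was higher by 0.146 (pooled SD 0.044, n = 2 each), and by 0.040 with those genes added. Larger shifts lay inside the roles, in TPM from which the length and GC trends were not removed. Mcl1 made up 63.7 and 64.0% of the pro-survival sum in WT and 77.0 and 75.7% in Mek1/2-tKO, while Bcl2l1 went from 32.7 and 32.5% to 21.4 and 22.4%. Bcl2 held 3.55 and 3.50% of that sum in WT and 1.62 and 1.86% in Mek1/2-tKO. Bax made up 54.7 and 55.9% of the effector sum in WT and 75.0 and 75.3% in Mek1/2-tKO.

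**Figure D4:**
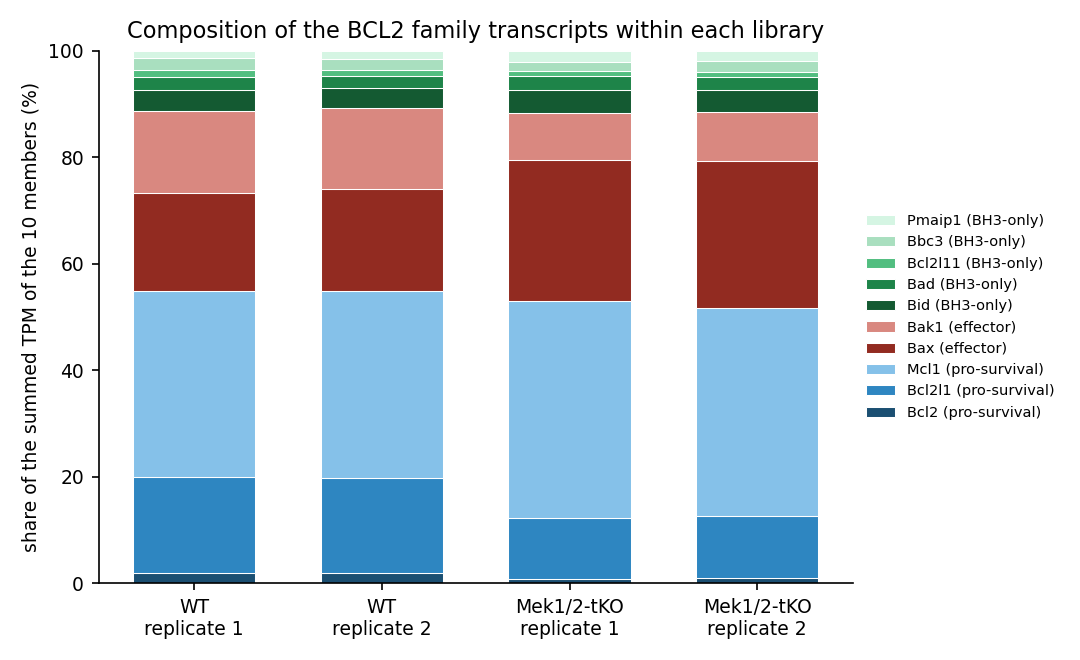
Share of each member in the summed TPM of the 10 members, in percent, as 1 stacked bar per library. The pro-survival block (blue) stays between 51.7 and 54.9% while Mcl1 widens and Bcl2l1 narrows within it, and Bax widens within the effector block (red).

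By the pattern over the 4 libraries (Euclidean distance of centred log2 CPM), the closest pair of members was Bid and Bad at 0.0385. Mcl1 lay nearest to Bid (0.119), Bcl2l1 and Bak1 nearest to each other (0.135), and Bax and Pmaip1 nearest to each other (0.192). Bcl2l11 and Bbc3, whose genotypes overlapped, were nearest to each other (0.224). Bcl2 had the largest distance to its nearest member, Bak1 (0.321). With 4 libraries in 2 genotypes such distances mainly rank the size and direction of the genotype difference.

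Exons of 5 members share bases with another gene, and the sources used here do not state the strand setting of the counting. For Bid 17.7% of the exon bases lie in Bcl2l13 on the opposite strand, which itself had 81.1 and 83.0 CPM in WT, against 63.6 and 57.4 CPM in Mek1/2-tKO, the opposite direction to Bid. For Bad 25.8% lie in Gpr137 on the opposite strand (10.3 and 10.7 CPM in WT, against 14.4 and 12.4 CPM in Mek1/2-tKO). The partners of Bak1 (Ggnbp1, 14.8% of bases) and Bcl2 (D630008O14Rik, 6.09%) had at most 1.49 CPM in any library. Gm45808, which shares 12.2% of the Bax bases on the same strand, had no counts. The other 5 members share no exon bases.

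Other genes of the family, 15 in all, were read beside the members, and 12 could be tested: 4 were higher, 3 lower and 5 not called, with a median log2 fold change of 0.029. These are 33.3% higher and 25.0% lower, against 19.3% and 16.4% of all tested genes, and the higher genes numbered 2 without Mek1/2-tKO replicate 1 and 2 with glmTreat. The largest increases were in Bcl2a1a (2.66, SE 0.258), a copy of the pro-survival gene A1, and in the BH3-only gene Bmf (2.41, SE 0.295). Bmf had 1.39 and 2.44 CPM in WT, against 10.5 and 9.85 CPM in Mek1/2-tKO. Bcl2l14 (0.80) and the more abundant A1 copy Bcl2a1d (0.62, and 0.21 and not called with the trends removed) were also higher, while the copy Bcl2a1b (0.44) passed by its adjusted p but not by its fold. The A1 copies are nearly identical in sequence, so the split of reads among them is uncertain. Bnip3, a receptor for the removal of mitochondria and a known target of hypoxia signalling, fell by 3.09 on the log2 scale, from 39.3 and 38.8 CPM to 5.62 and 3.62 CPM (edgeR adjusted p = 1.37e-08). Its relative Bnip3l fell by 1.25, and Bcl2l2, the gene of pro-survival BCL-W, fell by 0.99. Bcl2l13 (-0.44), Bcl2l12 (0.13), Bok (-0.078) and Bik (-0.31) were not called, and Bok and Bik stayed at or below 1.50 CPM in every library. Hrk and Bcl2l15 had too few counts to be tested, and Bcl2l10 had 0 counts in all 4 libraries, which allows up to 0.184 CPM in the shallowest.

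Downstream of the mitochondrial pore, 19 genes were tested, with 0 higher and 4 lower and a median of 0.022. The 21.1% lower compares with 16.4% of all tested genes, and the 0 higher with 19.3%. Casp6, an executioner caspase, fell by 1.04. Apaf1, the scaffold of the apoptosome, fell by 0.87, from 40.3 and 39.2 CPM to 21.1 and 22.6 CPM. Vdac1, a channel of the outer mitochondrial membrane, fell by 0.74, and Xiap, the caspase inhibitor, by 0.62. With the length and GC trends removed Casp6 (-0.79) and Vdac1 (-0.86) were still called and Apaf1 (-0.49) and Xiap (-0.41) were not. Of 10 death receptor genes, Tnfsf10, the gene of the ligand TRAIL, was higher (1.37) and Cflar, whose product blocks caspase-8, was lower (-0.66). With the trends removed Cflar (-0.22) was not called and the TNF receptor gene Tnfrsf1a was called lower in its place (-0.60, from -0.52), named after its values were seen. Each direction held 1 of the 10, against 19.3% higher and 16.4% lower over all tested genes.

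Bax, Bbc3 and Pmaip1 are textbook targets of p53, and 16 other genes of that pathway were read, of which 15 could be tested. Of these 4 were higher, namely Trp53inp1 (1.73), Phlda3 (1.54), Sesn1 (1.16) and the cell-cycle inhibitor Cdkn1a (0.91), and Sesn2 was lower (-1.53). All 5 calls stayed with the trends removed. The 26.7% higher and 6.67% lower compare with 19.3% and 16.4% of all tested genes. The median of the 15 was 0.045, and 10 were not called, Trp53 itself among them at a log2 fold change of -0.23.

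Among 24 genes whose products act on BCL2 family proteins, 23 were tested, 1 was higher and 6 were lower, with a median of -0.21. These are 4.35% higher and 26.1% lower, against 19.3% and 16.4% of all tested genes. Dynll1, a dynein light chain that binds BIM, rose from 196 and 193 CPM to 424 and 510 CPM (log2 fold change 1.27, SE 0.089, edgeR adjusted p = 6.79e-08). The largest decreases were in Usp9x (-1.15), which removes ubiquitin from MCL1, in Huwe1 (-0.89) and Fbxw7 (-0.82), which serve the ubiquitination of MCL1, and in Rps6ka3 (-0.76), an RSK kinase. With the trends removed Usp9x (-0.76) and Dynll1 (1.34) were the remaining calls of this list. Over the 79 tested genes of the 5 lists 10 were higher and 15 lower, 25 calls where 35.8% of all tested genes were called. With the trends removed 9 were higher and 8 lower, against 17.1% and 11.8% of all tested genes.

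**Figure D5:**
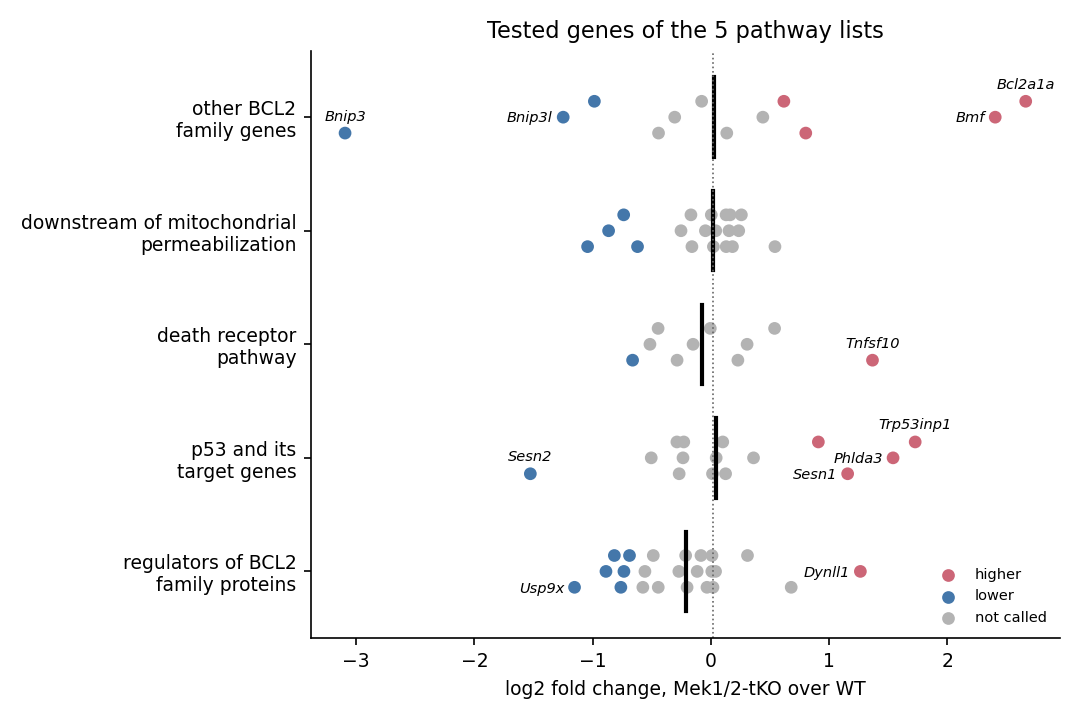
Log2 fold change in Mek1/2-tKO over WT of the tested genes in 5 lists of the apoptosis pathway, with genes called higher in red, called lower in blue and not called in grey, the median of each list as a black bar and the median of all tested genes as a dotted line. The medians lie between -0.21 and 0.045, and the widest spread, from -3.09 for Bnip3 to 2.66 for Bcl2a1a, is among the other BCL2 family genes.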

How the data were processed

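RNA of 2 WT and 2 Mek1/2-tKO libraries was sequenced. The authors trimmed reads with Trimmomatic 0.36, mapped them to GRCm38 and deposited raw counts per gene from featureCounts (Subread 1.5.1), with no normalization. The mapper appears as STRA in the methods. The release of the annotation and the strand setting are not given in the sources used here. Symbols were matched to 54723 of 54752 identifiers.

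The quasi-likelihood test of edgeR 4.0.16 (R 4.3.3) was applied after filterByExpr and TMM scaling, with robust fitting and with Benjamini-Hochberg adjustment over 14330 genes. Calls were made at an adjusted p below 0.05 and a 1.5-fold change. TPM used the deposited exon lengths. The biological coefficient of variation was 0.0918. Replicates differed beyond sampling noise (chi-square per gene 4.19 in WT, 10.9 in Mek1/2-tKO). For each gene the test fits the same spread to both genotypes, although these values differ. The test was run before use on simulated counts, drawn with the same spread for every gene. It called 83.6% of 67 genes changed 1.75-fold, 76.1% of 67 changed 2-fold and 97.0% of 66 changed 4-fold. There were 2 false calls. True changes of the size described here can thus be missed.

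Alternatives were DESeq2 1.42.0, glmTreat, other scalings, filters and thresholds, a replicate block and leaving out each library. Offsets from lowess trends on exon length and GC content (span 0.3) were added after the data were seen. Python 3.11.15 with pandas 2.3.3 and matplotlib 3.10.9 was used for summaries.

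The members and lists were chosen with earlier results of these data known. Named are the 10 members, Map2k1, Map2k2, every tested other BCL2 family gene, up to 4 called genes per direction of each other list whose average log2 CPM reached 1, each member's nearest member, and per marker list the most abundant gene and defining genes near 0. Protein sequences were not used here. One gene of the marker lists is counted but not reported here by name.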

Additional observations from a re-analysis of the deposited data

How the results depend on the processing

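Bax and Pmaip1 were called higher under every alternative that kept a 1.5-fold threshold, and Bcl2 was called lower under all of these except glmTreat and the removal of trends. Over the 14330 genes tested, glmTreat gave 1680 higher and 1262 lower, and a fold of at least 2 gave 1725 and 1040. Removal of the trends gave 2451 higher and 1691 lower, and no fold threshold gave 3983 and 3903. Of the members, 0 were lower with glmTreat, with the trends removed and at a fold of 2, where 0 were also higher (by adjusted p alone 8 passed in edgeR, and DESeq2 at 1.5-fold called 4). Without a fold threshold 5 were higher and 3 lower. With 1 library left out at a time, Mcl1 ranged from 0.58 to 0.64, Bid from 0.51 to 0.64 and Bad from 0.48 to 0.63. Mcl1 fell under the fold threshold without Mek1/2-tKO replicate 1. Bid and Bad passed that threshold without WT replicate 1 or without Mek1/2-tKO replicate 2. In these fits the lone library is assumed to vary like the other genotype. Of the 79 pathway genes, 9 were lower with glmTreat, 8 with the trends removed, 5 at a fold of 2 and 29 without a fold threshold, when 16 were higher. The ratios of summed levels moved to 0.0072 (effectors) and 0.040 (BH3-only) when the further family genes named above for these roles were added.

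Bcl2l11 turned to -0.067 with library size alone. With each library left out Bcl2l11 ranged from -0.057 to 0.078 and Bbc3 from -0.010 to 0.32, both turning without Mek1/2-tKO replicate 2. Bcl2l1 ranged from -0.24 to -0.21 in these fits, and its adjusted p depended on which genotype lost a library. Scaling by library size alone gave 2388 genes higher and 2848 lower and moved the median of all genes from 0.015 to -0.069. The causes were not tested.

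Same-numbered libraries deviated from their group means with a correlation of -0.0262 over genes, so the numbers were not taken to pair the libraries. With the replicate block 2652 genes were higher and 2300 lower, and the same 4 members were called.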
